A study of Mus musculus with 2 samples.

Results

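The 10 genes of lipoprotein packaging were followed in the duodenum, the part of the small intestine next to the stomach, where much dietary fat is taken up. They were taken by symbol, as Apoa1, Apoa4, Apoa5, Apoc2, Apoc3, Apob, Apobec1, Mttp, Sar1b and Tm6sf2, and all 10 had a row among the 43346 gene rows and together 32 of the 103639 transcript rows. The tissue was duodenum of C57BL/6J mice, adult and 8 weeks old, with no treatment given in the labels. It was pooled from male and female littermates, and poly(A) RNA was read in 2 libraries of 1 group, replicate 2 and replicate 1. Both libraries carry the same donor entry and different tissue-sample entries, so nothing shows that they came from separate animals. Every difference given here lies between those libraries and not between conditions.

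Absorptive cells of the gut rebuild triglyceride from absorbed fatty acids and pack it into chylomicrons, large lipoproteins that leave through the lymph. A chylomicron is built on 1 molecule of apolipoprotein B, made in the gut as the short form B-48 after an RNA edit creates a stop codon, and lipid is loaded onto it in the endoplasmic reticulum by the microsomal triglyceride transfer protein. Smaller, exchangeable apolipoproteins join the surface, and the finished particle is carried to the Golgi in vesicles of the COPII coat.

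The RNA edit sets which form of apolipoprotein B is made, so its target is shown first. The sequence below is the plus strand of exon 26 of the full-length Apob transcript ENSMUST00000037811, mm10, chr12:8008030-8008083. The first run of capitals is the glutamine codon whose C is deaminated by the enzyme Apobec1. The second run is TGATCAGT, the letters used here to find the mooring sequence that the editing complex recognises.

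Apob edited site: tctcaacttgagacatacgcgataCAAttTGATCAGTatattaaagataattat

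The edited C lies at position 8008054 of chromosome 12 and opens codon 2179 of the 4505 codons of the reading frame, 48.3% of the way along. The letters TGATCAGT occur 2 times in the 13934-base transcript, and 1 of these matches follows an in-frame CAA. The deposited tables hold no base calls, so the edited share of Apob RNA was not analysed here.

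Abundance ran from among the most abundant transcripts of the tissue to the edge of detection (levels in TPM, a measure scaled to transcript length that can be set side by side between genes). The 10 genes held 3.23% of all TPM in replicate 2 and 0.713% in replicate 1. Apoa1, Apoa4 and Apoc3 made up 86.2% of that sum in replicate 2 and 74.8% in replicate 1. In order of mean level the genes were Apoa1, Apoa4, Apoc3, Apoc2, Tm6sf2, Mttp, Apob, Sar1b, Apobec1 and Apoa5. From Apoa1 down to Tm6sf2 each range overlapped that of the next gene in this order, whereas from Tm6sf2 downwards no neighbouring ranges overlapped.

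**Figure D1:**
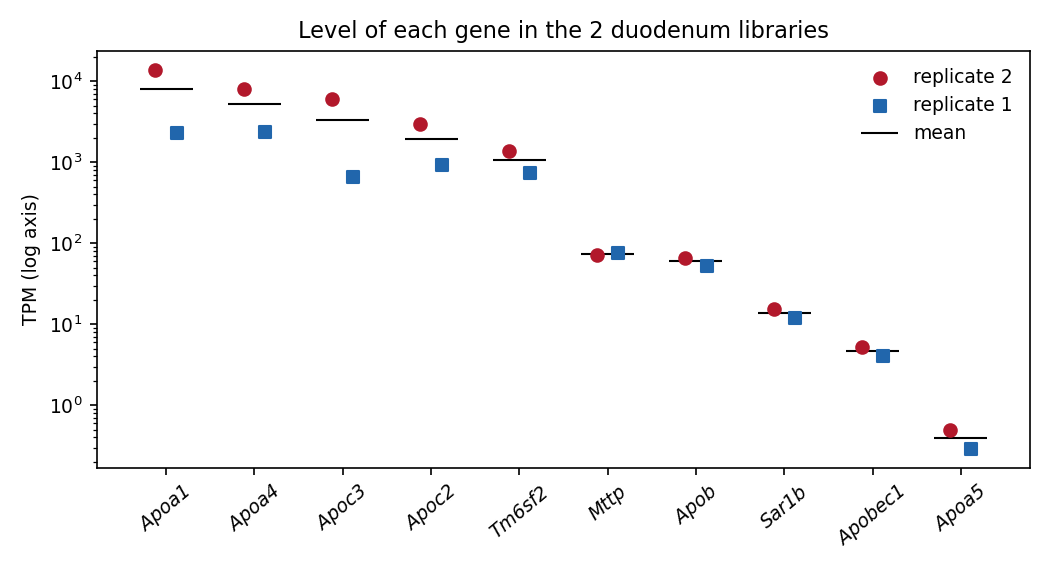
Level of the 10 genes in TPM on a log axis, with replicate 2 as circles left of replicate 1 as squares and the mean of both as a bar. Apoa1, Apoa4, Apoc3, Apoc2 and Tm6sf2 lie between 648 and 13844 TPM and are spread between the libraries, and Mttp, at a mean of 73.4 TPM, shows the closest pair of points.

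Between the libraries, Apoc3, Apoa1, Apoa4, Apoc2 and Tm6sf2 were higher in replicate 2 and none of the 10 was higher in replicate 1. The remaining 5, Apoa5, Apob, Apobec1, Mttp and Sar1b, did not pass. A gene was called where an exact two-sided binomial test on counts scaled with TMM (trimmed mean of M values) gave an adjusted p under 0.05 over the 15921 genes whose counts averaged 10 or more, and where the fold was at least 2. All 10 genes met that minimum. Over all genes tested, 11.5% were called higher in replicate 2 and 14.6% higher in replicate 1. Over the 10 genes, log2 ratios of replicate 2 to replicate 1 had a median of 0.84, and over all genes tested a median of -0.04. Fold intervals in brackets are exact 95% intervals that cover counting error only.

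**Figure D2:**
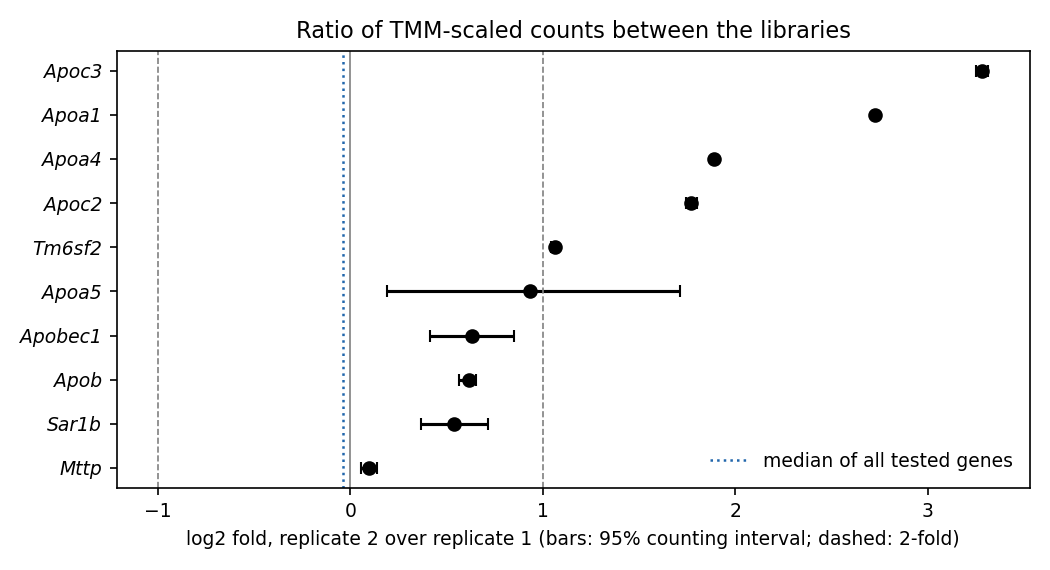
Log2 of the fold between the libraries, replicate 2 over replicate 1, in TMM-scaled counts with no pseudocount, for each gene with its 95% counting interval. Apoc3 at 9.73-fold and Apoa1 at 6.61-fold lie farthest to the right, Mttp at 1.07-fold lies nearest to 0, and the interval of Apoa5 is the widest.

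Apoa1, Apoa4 and Apoc3, exchangeable apolipoproteins of the chromosome 9 cluster, came first in mean level, although in replicate 1 Apoc3 lay below Apoc2 and Tm6sf2. Apoa1 encodes the main protein of high-density lipoprotein and also coats newly made chylomicrons (ENSMUSG00000032083, mm10, chromosome 9, 46228580 to 46230466, plus strand). It had 13844 TPM in replicate 2 against 2308 TPM in replicate 1, a mean of 8076 ± 8157 TPM (SD, n = 2), and ranked 5 among all genes in replicate 2 and 49 in replicate 1. The fold was 6.61 (6.56 to 6.66), from 447938 counts in replicate 2 and 79102 in replicate 1. Its spread was thus as large as its mean.

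Apoa4 encodes an apolipoprotein made chiefly by the small intestine in rodents and released with chylomicrons after fat (ENSMUSG00000032080, chromosome 9, 46240696 to 46243459, plus strand). It had 7926 TPM in replicate 2 against 2380 TPM in replicate 1 (5153 ± 3921, SD, n = 2), a fold of 3.71 (3.68 to 3.73). In replicate 1 its level lay just above that of Apoa1, with an Apoa1 to Apoa4 ratio in TPM of 0.970, against 1.75 in replicate 2. The order of the pair therefore differed between the libraries. An antisense gene that overlaps it, Gm10680, had 0.57 TPM in replicate 2 against 0.43 TPM in replicate 1.

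Apoc3 encodes an inhibitor of lipoprotein lipase and of remnant uptake, and it is read from the opposite strand between those genes (ENSMUSG00000032081, chromosome 9, 46232933 to 46235636). It had 6027 TPM in replicate 2 against 648 TPM in replicate 1 (3337 ± 3804, SD, n = 2). At 9.73-fold (9.52 to 9.95) it differed most of the 10 genes, and its rank was 20 in replicate 2 and 184 in replicate 1. For each transcript of Apoc3 there were 2.30 of Apoa1 in replicate 2 and 3.56 in replicate 1.

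Apoa5, the last gene of the cluster, encodes an activator of lipoprotein lipase that is known as a liver product (ENSMUSG00000032079, chromosome 9, 46268633 to 46271919, plus strand). It had 41 counts in replicate 2 and 25 counts in replicate 1, or 0.49 and 0.29 TPM. The fold of 1.91 (1.14 to 3.28) did not reach the 2-fold limit. Neighbours in the same stretch of chromosome 9 were not called either. Sik3, a kinase gene upstream of Apoa1, had 9.54 TPM in replicate 2 against 11.92 TPM in replicate 1, and Zpr1, downstream of Apoa5, had 11.92 TPM in replicate 2 against 8.98 TPM in replicate 1. The 3 called genes of the cluster thus lay between genes whose log2 ratios were -0.27 for Sik3 and 0.66 for Zpr1.

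Apoc2 encodes the cofactor that lipoprotein lipase needs, and it lies in the apolipoprotein cluster of chromosome 7 (ENSMUSG00000002992, 19671579 to 19677941, minus strand). It had 2930 TPM in replicate 2 against 915 TPM in replicate 1 (1922 ± 1425, SD, n = 2), with a fold of 3.41 (3.35 to 3.48). It outnumbered Apoc3 in replicate 1, with an Apoc2 to Apoc3 ratio of 1.41 in TPM, but not in replicate 2, where the ratio was 0.486. In the deposited tables, transcripts that the newer annotation gives to the overlapping gene Gm44805 were counted under Apoc2, at no more than 0.05% of its isoform percent in replicate 2 and 0.04% in replicate 1.

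The rest of that cluster was far less abundant, apart from Apoe, which directs remnant uptake. Apoe had 415 TPM in replicate 2 against 275 TPM in replicate 1, a fold of 1.64 that was not called. Apoc4 had 18 counts in replicate 2 against 4 counts in replicate 1, a called fold of 5.25 with an interval of 1.73 to 21.3. Apoc1 had 9 and 7 counts in replicate 2 and replicate 1 and was too low to test. Of the other neighbours within 50 kb, Relb, a subunit of NF-kappa-B, was called at 2.74-fold higher in replicate 2, whereas Clptm1, Tomm40 and Nectin2 were not called at 1.47, 1.30 and 1.09-fold.

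Among the genes for the particle core, gene-level TPM of Apob and Mttp lay far below that of the abundant surface proteins. The Apob value sums its transcripts, and the full-length transcript alone had 11.6 TPM in replicate 2 against 8.79 TPM in replicate 1, so that Mttp exceeded it 6.15 times in replicate 2 and 8.56 times in replicate 1. Apob encodes the scaffold itself (ENSMUSG00000020609, chromosome 12, 7977648 to 8016835, plus strand) and had 66.5 TPM in replicate 2 against 53.0 TPM in replicate 1 (59.7 ± 9.57, SD, n = 2). Mttp encodes the large subunit of the lipid transfer protein (ENSMUSG00000028158, chromosome 3, 138089854 to 138144968, minus strand) and had 71.5 TPM in replicate 2 against 75.2 TPM in replicate 1 (73.4 ± 2.61, SD, n = 2). The folds were 1.53 (1.48 to 1.57) for Apob and 1.07 (1.04 to 1.10) for Mttp. Neither was called, and the Mttp log2 ratio of 0.09 became -0.15 when spike-in totals were used for scaling.

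Measured against the gene-level TPM of Apob, the surface proteins differed more between the libraries than Mttp did. There were 208 Apoa1 transcripts for each of Apob in replicate 2 and 43.6 in replicate 1, and for Apoa4 119 in replicate 2 and 44.9 in replicate 1. The Mttp to Apob ratio was 1.08 in replicate 2 and 1.42 in replicate 1. Against the full-length Apob transcript alone, the Apoa1 ratio was 1189 in replicate 2 and 263 in replicate 1, and the Apoa4 ratio was 681 in replicate 2 and 271 in replicate 1. These are ratios of RNA in TPM and say nothing of protein per particle.

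Tm6sf2 encodes a membrane protein of the endoplasmic reticulum and Golgi compartment that is needed for normal lipid loading of Apob particles (ENSMUSG00000036151, chromosome 8, 70072924 to 70080066, plus strand). It had 1379 TPM in replicate 2 against 737 TPM in replicate 1 (1058 ± 454, SD, n = 2), ranking 101 in replicate 2 and 161 in replicate 1. Its fold of 2.09 (2.06 to 2.11) lay just inside the limit and dropped out of the calls with spike-in scaling and with TPM ratios. It exceeded Mttp 19.3 times in replicate 2 and 9.80 times in replicate 1. By mean level only Apoa1, Apoa4, Apoc3 and Apoc2 among the 10 genes lay above it.

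Sar1b encodes the small GTPase that starts the COPII coat and whose loss in people causes chylomicron retention disease (ENSMUSG00000020386, chromosome 11, 51763687 to 51791925, plus strand). It had 15.5 TPM in replicate 2 against 11.8 TPM in replicate 1, a fold of 1.45 (1.29 to 1.64) that was not called. Apobec1 encodes the editing enzyme (ENSMUSG00000040613, chromosome 6, 122577792 to 122602444, minus strand) and had 5.24 TPM in replicate 2 against 4.00 TPM in replicate 1, with 402 and 303 counts and a fold of 1.55 (1.33 to 1.80) that was not called. By gene-level TPM there were 12.7 Apob transcripts for each of Apobec1 in replicate 2 and 13.2 in replicate 1, the most even ratio among those computed. The short Apob transcripts described below are counted in that TPM but do not hold the edited base. The full-length transcript, which holds it, had 11.6 TPM in replicate 2 against 8.79 TPM in replicate 1.

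The transcript tables divide each gene between its annotated isoforms. Apoa1, Apoa4, Apoa5, Apoc2, Apoc3, Mttp, Sar1b and Tm6sf2 each had at least 95.9% of their TPM in 1 transcript in both libraries, while Apob and Apobec1 were divided. For Apoa5, though, the posterior-mean estimate put 80.5% in replicate 2 and 71.8% in replicate 1 on the leading transcript. Mttp has an annotated upstream first exon in transcript ENSMUST00000098580, which took 0.06% of Mttp TPM in replicate 2 and 0.10% in replicate 1.

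For Apob, the full-length transcript ENSMUST00000037811 of 13934 bases was a minority by TPM. It had 11.6 TPM in replicate 2 against 8.79 TPM in replicate 1, an isoform percent of 17.5 in replicate 2 and 16.6 in replicate 1, although it took 60.4% of the gene's counts in replicate 2 and 61.8% in replicate 1. A 2174-base transcript from the 3′ end, ENSMUST00000171239, had 52.2 TPM in replicate 2 against 31.8 TPM in replicate 1, an isoform percent of 78.5 in replicate 2 and 60.0 in replicate 1. An 1118-base transcript from the 5′ end, ENSMUST00000171271, had 2.67 TPM in replicate 2 against 12.4 TPM in replicate 1, an isoform percent of 4.01 in replicate 2 and 23.4 in replicate 1. The gene-level TPM of Apob therefore rests mostly on a short 3′ model, and the 5′ model was the part that lay higher in replicate 1. The fourth transcript, of 13369 bases, was listed at 0 in both libraries.

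Apobec1 was divided between ENSMUST00000112586, with an isoform percent of 47.8 in replicate 2 and 28.7 in replicate 1, and ENSMUST00000112585, with 40.3 in replicate 2 and 58.0 in replicate 1. The order of the pair differed between the libraries, on 402 counts in replicate 2 and 303 in replicate 1 for the whole gene.

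**Figure D3:**
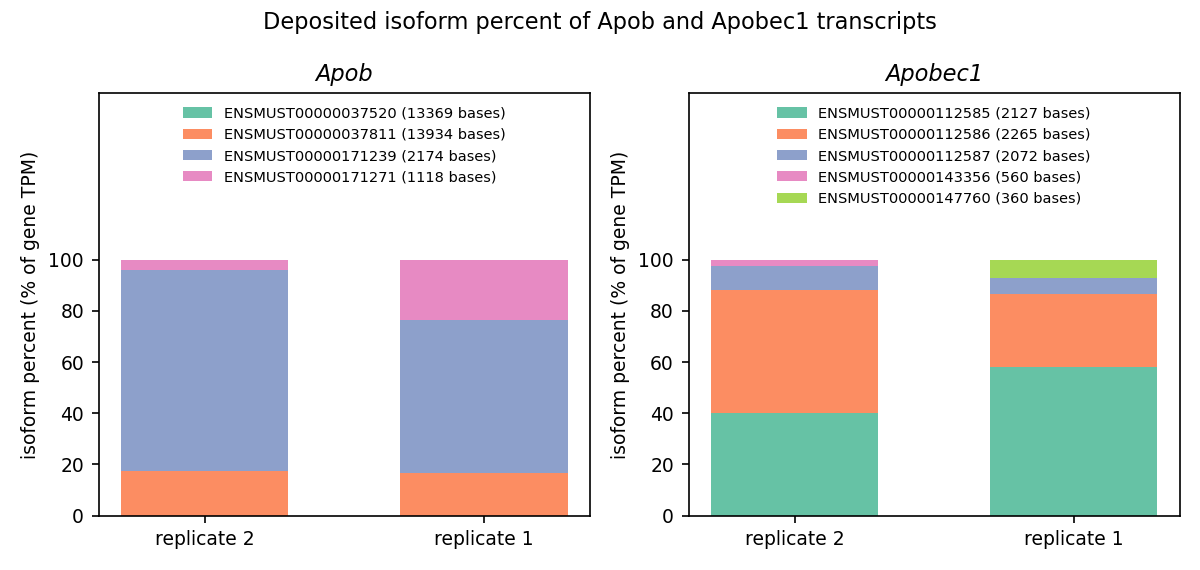
Deposited isoform percent, the share of each transcript in the TPM of its gene, for Apob and Apobec1, with replicate 2 left of replicate 1. The 2174-base 3′ transcript of Apob fills 78.5% of the bar in replicate 2 and 60.0% in replicate 1, and the leading Apobec1 transcript is not the same in both libraries.

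Reads across splice junctions give a second view that does not depend on dividing reads between isoforms. The deposited junction list is in mm9 and sums both libraries, with the counts named R1 and R2 of each entry not assigned to replicates in the sources used here. Entries were matched to annotated introns by the chain of intron lengths and their spacing. All introns of the leading transcript were matched for Apoa1, Apoa4, Apoc2, Apoc3, Apobec1, Sar1b and Tm6sf2, 27 of 28 for Apob, 16 of 17 for Mttp and none of 2 for Apoa5.

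Along Apob, reads per matched intron ran from 2 to 747 with a median of 59, highest at intron 1 and at 622 reads for intron 28, the last. The lowest were intron 15 with 2 reads and intron 14 with 4. Between the ends the reads were irregular, with 372 at intron 18 and 21 at intron 26. The 3′ model ENSMUST00000171239 differs from the full-length transcript by an intron of 790 bases, which held 32 reads, whereas intron 28, which both share, held 622. Only a small number of reads was thus specific to the model that took most of the gene's TPM.

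The 5′ model ENSMUST00000171271 differs at the start of exon 3, where the acceptor lies 3 bases further in. The spliced exon 2 to exon 3 junctions of both transcripts follow, with 15 bases from each exon. Capitals mark the 3 bases that the full-length transcript keeps and the 5′ model lacks. They open exon 3 of the full-length transcript at position 7979253 of chromosome 12 (mm10, plus strand).

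Apob full-length junction: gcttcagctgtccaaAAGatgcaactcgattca

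Apob 5′ model junction: gcttcagctgtccaaatgcaactcgattca

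The upstream acceptor, with an intron of 1001 bases, had 304 reads, and the downstream acceptor, with an intron of 1004 bases, had 26. The downstream acceptor thus took 7.88% of 330 reads, with an exact 95% interval of 5.21% to 11.3%. In the R1 count it took 19 of 112 reads, or 17.0% (10.5% to 25.2%), and in the R2 count 7 of 218, or 3.21% (1.30% to 6.50%). The intervals of the R1 and R2 shares did not overlap.

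Along Mttp, reads per matched intron ran from 72 at intron 3 to 1630 at intron 11, with a median of 408. The annotated upstream introns of ENSMUST00000098580 had no entry. Intron 13, of 154 bases, had no matched entry, but an entry of the same length lay 4 bases off the place given by the spacing of the other introns, with 1372 reads and no annotation flag. That entry held most of the 1412 reads of unflagged junctions within Mttp, which were 13.1% of its junction reads.

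**Figure D4:**
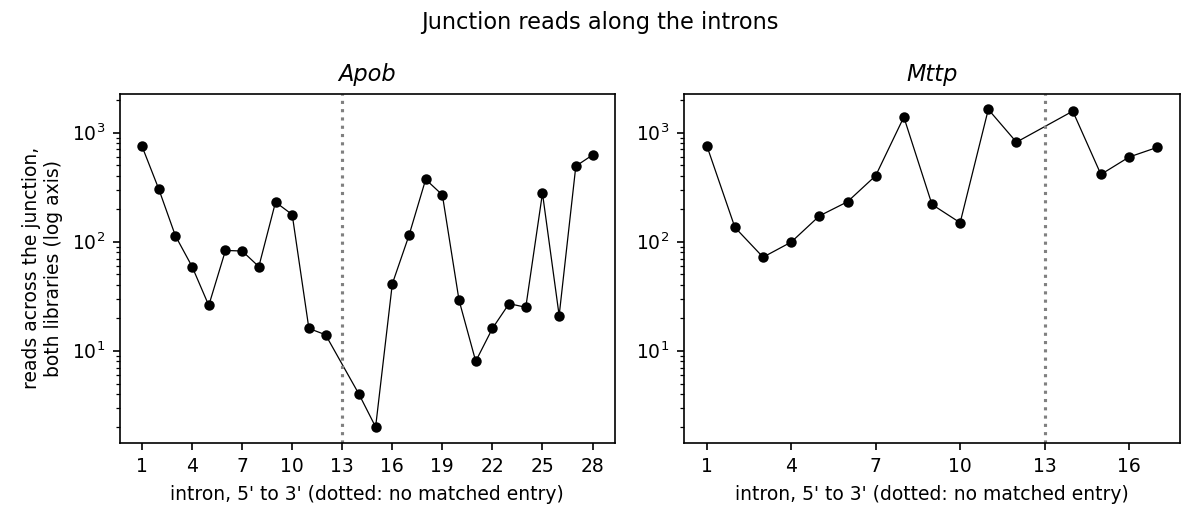
Reads across each matched intron of Apob and of Mttp, 5′ to 3′, summed over both libraries, on a log axis, with a dotted line where no entry was matched. Apob falls to 2 reads at intron 15 and is highest at its ends, and Mttp stays between 72 and 1630.

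The abundant apolipoproteins had far more junction reads, and these were uneven within a gene. Apoa4 had 71412 reads at intron 1 and 16815 at intron 2. Apoa1 had 39709 reads at intron 1, 6722 at intron 2 and 3503 at intron 3. Apoc3 had 39470, 7924 and 37142 reads at its 3 introns, and its rarer first introns, of 795 and 428 bases, had 247 and 341 reads, or 0.622% (0.547% to 0.704%) and 0.857% (0.768% to 0.952%) of the reads at each choice. The 795-base intron took 1.30% (0.984% to 1.69%) of the R1 reads and 0.539% (0.466% to 0.621%) of the R2 reads, and the 428-base intron 1.44% (1.10% to 1.84%) of the R1 reads and 0.786% (0.697% to 0.883%) of the R2 reads. The isoform percents beside these were 0.85 in replicate 2 and 0.77 in replicate 1 for ENSMUST00000118649, whose intron is the longer, and 0.77 in replicate 2 and 0.93 in replicate 1 for ENSMUST00000121916.

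The division between the R1 and R2 counts differed among the genes. The R1 share was 51.4% over the 32399438 reads of the whole list. It lay between 14.9% and 23.7% for the introns of Apoa1, 16.5% and 28.5% for Apoc2, 4.50% and 15.9% for Apoc3, and 25.4% and 43.1% for Tm6sf2, all under the share of the list. Apoa4 had 62.2% at intron 1 and 12.4% at intron 2, so that its 2 introns lay on opposite sides of the share of the list. Among introns of Mttp with at least 100 reads the share ran from 19.8% to 70.9%.

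**Figure D5:**
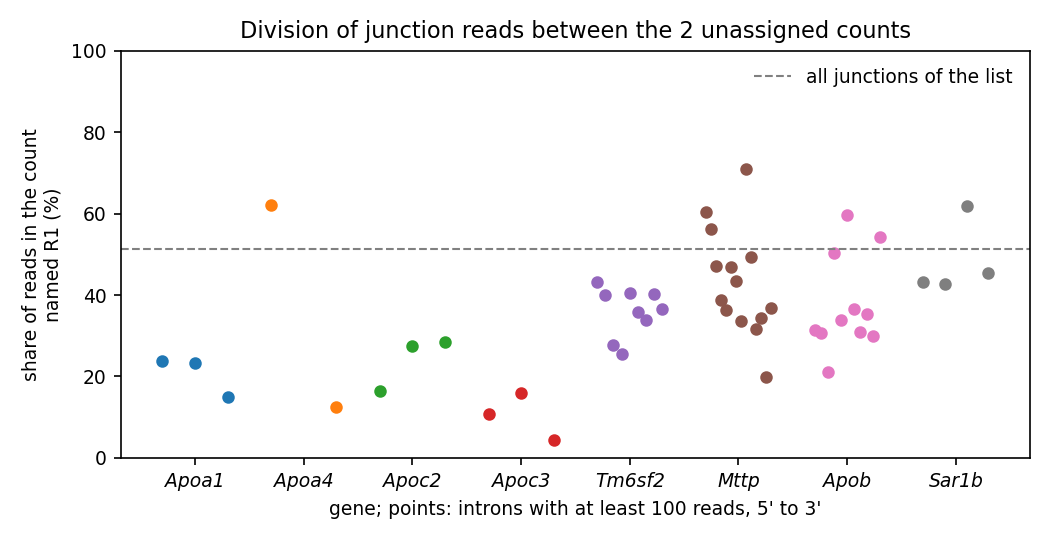
Share of junction reads in the count named R1, in percent, for each intron with at least 100 reads, 5′ to 3′ within each gene, with the share over the whole list as a dashed line at 51.4%. The points of Apoa1, Apoc2, Apoc3 and Tm6sf2 lie under the line, and those of Apoa4, Mttp, Apob and Sar1b lie on both sides of it.

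Upstream sequence from RefSeq (GRCm38.p6, 250 bases before to 50 after a gene's start) was given for 8 of the 10 genes, all but Apoc3 and Tm6sf2. The RefSeq starts of Apoa1, Apob and Sar1b lie within 50 bases of the start of the leading transcript, at 50, 29 and 24 bases. Of these, the windows of Apoa1, which was called, and Apob, which was not, are shown. Each window was searched on both strands for 5 short motifs, and capitals mark any match. The first was the TATA box, written as TATAAA. Nuclear receptors were represented by the half-site AGGTCA, and the intestinal and hepatic factor HNF4 by the core of its sites, CAAAGTC. For HNF1 the half-site GTTAAT was used, and for the GATA factors the letters AGATAA. No match overlapped another in these windows.

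Apoa1, chr9:46228380-46228679, plus strand: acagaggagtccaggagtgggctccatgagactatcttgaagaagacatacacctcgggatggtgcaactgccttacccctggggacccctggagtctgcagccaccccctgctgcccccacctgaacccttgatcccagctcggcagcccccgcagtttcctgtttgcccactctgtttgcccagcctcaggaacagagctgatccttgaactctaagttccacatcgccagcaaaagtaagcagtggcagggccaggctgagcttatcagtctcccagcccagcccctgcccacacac

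Apob, chr12:7977427-7977726, plus strand: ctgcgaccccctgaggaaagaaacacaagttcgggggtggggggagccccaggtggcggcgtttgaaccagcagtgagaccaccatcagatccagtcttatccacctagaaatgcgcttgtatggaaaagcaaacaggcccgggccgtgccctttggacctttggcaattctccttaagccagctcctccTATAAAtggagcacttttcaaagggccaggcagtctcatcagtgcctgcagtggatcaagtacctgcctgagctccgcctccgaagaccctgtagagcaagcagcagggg

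The Apob window holds TATAAA with its first base at -60 relative to the RefSeq start, and the Apoa1 window holds none of the 5. That Apob start lies 29 bases downstream of the start of the leading transcript. By comparison, of 32851 promoter windows, 13.6% hold TATAAA, 16.3% AGGTCA, 4.44% CAAAGTC, 7.10% GTTAAT and 11.2% AGATAA. The windows of Apoa4, Mttp and Sar1b hold none of the 5 motifs. Apoa5 has windows at 2 annotated starts, which hold the same TATAAA at -31 from 1 start and -56 from the other, and the Apobec1 window holds TATAAA at -212 on the opposite strand. The window of Apoc2 holds AGGTCA at -115 and at 42 and GTTAAT at -89, but the start used there lies 1077 bases from the start of the leading transcript. For Mttp this distance is 12041 bases, for Apoa5 470 and 445 bases, for Apoa4 148 bases and for Apobec1 73 bases. These are matches of letters and say nothing of binding.

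Genes that act beside the 10 were counted in groups, against the same background of 11.5% and 14.6% of all genes called. Of 8 partners of Apob editing, 1 passed as higher in replicate 2, 2 as higher in replicate 1, and 5 did not pass, with a median log2 ratio of -0.21. The cofactor gene Rbm47, which can stand in for other cofactors in editing, had 95.3 TPM in replicate 2 against 81.0 TPM in replicate 1 and was not called. Hnrnpab, an RNA-binding protein found with the editing enzyme, was 2.53-fold higher in replicate 2, and Syncrip, another, was 2.48-fold higher in replicate 1. Apobec2, a relative of the editing enzyme, was 2.16-fold higher in replicate 1, and Khsrp, another RNA-binding protein, had 48.5 TPM in replicate 2 against 59.8 TPM in replicate 1 and was not called.

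Of 16 particle assembly partners, 4 passed as higher in replicate 2, 1 as higher in replicate 1, and 11 did not pass, with a median log2 ratio of 0.54. Those higher in replicate 2 were Pla2g12b at 2.38-fold, Smlr1 at 2.56-fold, Cideb, a lipid droplet protein that aids lipidation of lipoproteins, at 2.60-fold, and Plin3, a lipid droplet coat protein, at 3.05-fold. Prap1, which binds Mttp and aids lipid transfer, had 3712 TPM in replicate 2 against 4927 TPM in replicate 1 and was not called. Surf4, a cargo receptor for lipoproteins leaving the endoplasmic reticulum, had 821 TPM in replicate 2 against 418 TPM in replicate 1, a fold of 1.86 that was not called. Pdia3, an oxidoreductase of the endoplasmic reticulum, was not called at 1.96-fold, and the chaperone gene Hspa5 was 2.18-fold higher in replicate 1.

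Of 20 genes of the COPII coat and large carriers that were found out of 21, 18 did not pass, with a median of 0.07. The v-SNARE gene Ykt6 was 2.14-fold higher in replicate 2, and Sec31b was 2.89-fold higher in replicate 1. The most abundant by mean level, Tfg, Sec31a and Preb, were not called at 1.52, 1.28 and 1.11-fold. Of 17 tested genes of lipolysis and uptake, 3 passed as higher in replicate 2, 3 as higher in replicate 1, and 11 did not pass, with a median of 0.05. Lsr, a lipoprotein receptor of epithelia, was 2.52-fold higher in replicate 2, whereas the receptor genes Scarb1 and Vldlr were 3.58 and 4.57-fold higher in replicate 1. The cholesterol exporter gene Abca1 was 3.32-fold and the lipase inhibitor gene Angptl4 2.51-fold higher in replicate 2, and the endothelial lipase gene Lipg was 3.40-fold higher in replicate 1. Lrp1, a remnant receptor, was not called at 1.32-fold.

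Of 20 regulators of apolipoprotein genes, 4 passed as higher in replicate 2, none as higher in replicate 1, and 16 did not pass, with a median of 0.07. Creb3l3, a membrane-bound factor that controls Apoa4 and Apoc2 in mouse, was 2.44-fold higher, Nr1h3, the liver X receptor alpha, 2.82-fold, Gata5 2.64-fold and Cdx2 3.01-fold. Mlxipl, a glucose-responsive factor, was not called at 250 TPM in replicate 2 against 288 TPM in replicate 1. Of the 8 tested among 16 other apolipoproteins, 2 passed as higher in replicate 2, 2 as higher in replicate 1, and 4 did not pass, with a median of 0.06. Clu, the first of these by mean level though below Apoe in replicate 2, had 76.8 TPM in replicate 2 against 676 TPM in replicate 1, a fold of 7.84 (7.58 to 8.12) higher in replicate 1, opposite to the 5 called genes of the chylomicron set. Apoo was 2.14-fold higher in replicate 2 and Apod, with 7 counts in replicate 2 and 24 in replicate 1, was 2.94-fold higher in replicate 1.

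Genes of enterocytes, pancreas and stomach also differed between the libraries, not all in the direction of the 10 genes. Of 20 enterocyte genes of brush border and digestion, 13 passed as higher in replicate 2, 1 as higher in replicate 1, and 6 did not pass, with a median log2 ratio of 1.51. The peptide transporter gene Slc15a1 was 7.72-fold, the peptidase genes Ace and Anpep 6.47 and 5.90-fold and the lactase gene Lct 4.88-fold higher in replicate 2, while the lectin gene Lgals4 was not called at 1.52-fold. Their summed level was 13339 TPM in replicate 2 against 12280 TPM in replicate 1. Alpi, an alkaline phosphatase and the 1 gene of this list higher in replicate 1, had 1568 TPM in replicate 2 against 7153 TPM in replicate 1. Of 19 exocrine pancreas markers, 18 passed as higher in replicate 1 and 1 as higher in replicate 2, with a summed 5772 TPM in replicate 2 against 94234 TPM in replicate 1. Of the sum in replicate 2, 4507 TPM came from Zg16, the 1 gene higher there, which goblet cells also make, and 1083 TPM from Clps, which had 11586 TPM in replicate 1. Without Zg16 and Clps the sum was 181 TPM in replicate 2 against 81150 TPM in replicate 1. Ctrb1, Cela2a, Cela3b, Try4, Cpa1 and Pnlip, genes of digestive enzymes, were between 528-fold (Cela2a) and 1018-fold (Cpa1) higher in replicate 1. Of 12 stomach and Brunner gland markers, 11 were higher in replicate 1, with a summed 90.9 TPM in replicate 2 against 24930 TPM in replicate 1. Gkn3, Tff1, Tff2, Muc5ac and Muc6, genes of gastric peptides and mucins, were between 198-fold (Tff1) and 571-fold (Muc6) higher in replicate 1. In bulk tissue, fewer cells of a type and less RNA per cell cannot be told apart, and the part of these tissues in the result was not tested. With only the listed pancreas and stomach markers left out of the TPM sums, Apoa1, Apoa4, Apoc2 and Apoc3 had TPM ratios above 2-fold. That setting rescales the totals and leaves in all other RNA of those tissues, so it is not a test of tissue content.

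Liver is the other main source of most of these proteins. Of 16 hepatocyte markers 11 could be tested, 3 of them higher in replicate 2 and 8 higher in replicate 1, with a summed 41.9 TPM in replicate 2 against 76.0 TPM in replicate 1. Alb, the serum albumin gene, had 2 counts in replicate 2 and 55 in replicate 1, Ahsg, the fetuin-A gene, had 1 in replicate 2 and 53 in replicate 1, and Fgb and Fga, which encode fibrinogen chains, had 0 counts in both. Fgg, the third fibrinogen chain, had 0 counts in replicate 2 against 8 counts in replicate 1. A count of 0 allows up to 3 counts, or 0.0671 CPM (counts scaled to library size) in replicate 2 and 0.0678 CPM in replicate 1. Of the list, Hp stood at 16.6 TPM in replicate 2 against 0.78 TPM in replicate 1, Cps1, which the gut also makes, at 16.2 TPM in replicate 2 against 41.6 TPM in replicate 1, and Ttr at 4.01 TPM in replicate 2 against 21.8 TPM in replicate 1. No other hepatocyte marker exceeded 2.21 TPM in replicate 2 or 5.96 TPM in replicate 1. The part of liver RNA in the result was not tested.

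Base composition also divided the 10 genes. The 5 called genes have a GC content between 54.8% (Apoc3) and 57.6% (Apoa4), while Sar1b (42.8%), Apob (43.1%), Mttp (45.9%) and Apobec1 (46.5%) lie below the median of 52.9% over 12959 genes. Apoa5, which was not called, has 56.1%. Across those genes the Spearman correlation of GC content was 0.321 with TPM in replicate 2, 0.310 with TPM in replicate 1 and 0.148 with the log2 ratio, with both libraries sharing the same genes and the same preparation. Its part in the levels and ratios was not tested.

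The protein-coding genes with a mean of at least 100 TPM whose log2 ratio lay closest to that of Apoa1 were Pdlim2, Ace and Ccng2, at 6.73, 6.47 and 6.46-fold. Those closest to Apob were Rfng, Mpp1 and Pde9a, each at 1.53-fold. Likeness here rests on a single ratio between 2 libraries.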

How the data were processed

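The members and gene lists were chosen with earlier results of these data known. Per the text files deposited beside the tables, quantification used mm10 and GENCODE M4; no source used here gives the aligner or quantifier. Expected counts, as deposited, are estimates per gene and transcript without normalisation. TPM was computed by the authors from length and a common total, per the file headers. Isoform percent, as deposited, is a transcript's share of its gene's TPM, per the file headers. The deposited junction counts are whole reads in mm9 over both libraries and equal R1 plus R2 in every entry. For each gene, entries were matched to mm10 introns of equal length at a constant shift between the builds.

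Genes alone held 44710137 expected counts in replicate 2 and 44272208 in replicate 1, and rows outside genes (spike-ins and phiX) held 1.60% and 1.57% of all counts and entered neither library sizes nor tests. Symbols and positions came from GENCODE M21 by identifier (42462 of 43346 rows matched). Rounded expected counts were given TMM library sizes by edgeR 4.0.16 under R 4.3.3. With 1 library on each side no spread could be fitted, so an exact two-sided binomial test per gene (scipy 1.17.1) was adjusted by Benjamini-Hochberg over genes averaging 10 or more counts. Such a test compares these libraries and not conditions. Log2 ratios add 0.5 to CPM; folds add nothing. Intervals are exact 95% Clopper-Pearson intervals and cover counting error only, since no spread between libraries could be fitted. Reads carry no molecular identifiers, so copies of 1 molecule were not told apart from other reads. The calling was checked on simulated data drawn with counting error only, so that check does not cover spread between libraries. Alternatives were DESeq2 1.42.0 size factors, spike-in totals, posterior mean counts, no count minimum, a 1.5-fold limit, TPM ratios with and without pancreas and stomach genes, posterior-mean TPM and isoform percent, and each library alone.

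Besides the 10 genes, the text names from each list the genes of the 3 highest mean TPM and up to 4 called genes of largest log2 ratio, the neighbours of Apoa1 and Apoc2 within 50 kb and the 3 genes nearest in ratio to Apoa1 and Apob; Fgb, Fga, Fgg, Hspa5, Angptl4 and Zg16 were named after their values were seen.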

Additional observations from a re-analysis of the deposited data

How the results depend on the processing

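Of the 10 genes, 5 were called higher in replicate 2 in the reported result and with DESeq2 size factors, posterior mean counts or no count minimum, 4 (all but Tm6sf2) with spike-in totals or either TPM ratio, and 8 at a 1.5-fold limit. None was called higher in replicate 1 under any of these. The Tm6sf2 log2 ratio was 0.82 with spike-in totals, 0.90 as a TPM ratio and 0.73 as a TPM ratio without pancreas and stomach genes. Mttp changed sign, to -0.15, -0.07 and -0.25 under the same settings. These settings move the median log2 ratio of all genes tested to -0.24, -0.15 and -0.29, against -0.04 in the reported result; the cause of the Mttp and Tm6sf2 changes was not tested further. Over these settings the log2 ratio of Apoc3 stayed between 3.04 and 3.32 and that of Apoa1 between 2.41 and 2.76, while Apob ran from 0.15 to 0.65.

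Over all genes, 1830 were called higher in replicate 2 and 2324 higher in replicate 1. Spike-in totals gave 1257 and 3208, the TPM ratio 1125 and 1719, the TPM ratio without pancreas and stomach genes 886 and 2304, and a 1.5-fold limit 3374 and 3838. Left with 1 library, mean TPM is that library's value. No paired analysis was possible because both libraries belong to 1 group. Apoa5 and Apoc4 are limited by depth. Isoform shares of Apobec1 rest on few reads, and no source used here gives the library behind R1 or R2.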

Other observations

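Estimated isoforms and junction reads of Apob can be set side by side. The 3′ transcript ENSMUST00000171239 took an isoform percent of 78.5 in replicate 2 and 60.0 in replicate 1, while its own 790-base intron held 32 reads over both libraries against 622 for the last intron it shares with the full-length transcript. The 5′ transcript ENSMUST00000171271 took 4.01 in replicate 2 and 23.4 in replicate 1, and its acceptor took 7 of 218 reads in the R2 count and 19 of 112 in the R1 count. Apobec1 shows a like pair of values, with the 5371-base intron of ENSMUST00000112586 and ENSMUST00000112587 at 9 of 41 reads, or 22.0% (exact 95% interval 10.6% to 37.6%), beside a summed isoform percent of both transcripts of 57.3 in replicate 2 and 34.9 in replicate 1. What sets these differences was not tested.

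Apoa4 has 1 transcript in the tables, yet its 2 introns held 44433 of 71412 and 2078 of 16815 reads in the R1 count. No other intron of the leading transcripts of Apoa1, Apoc2 and Apoc3 had an R1 share above 28.5%. Its cause was not tested.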
